A study of Mus musculus with 12 samples.

Results

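The 10 genes described here encode 8 lysosomal cathepsins (Ctsb, Ctsc, Ctsd, Ctsh, Ctsk, Ctsl, Ctss and Ctsz), the asparaginyl endopeptidase legumain (Lgmn) and the glycoprotein Gpnmb. They were taken by name, with every probe whose transcript accession belongs to one of them, out of 19096 genes named on the array. They had 14 probes, and all 10 genes entered the test over 20869 genes. The samples were 12 one-colour Agilent arrays of mouse total RNA in 3 groups of 4. One group was mouse embryonic stem cells (mESC), and the others were taken on day 9 and on day 14 of what the design text calls cardiomyocyte differentiation. The growth text, the same for every sample, describes plating on a coat of crosslinked elastin-like polypeptide, an engineered protein that repeats a motif of elastin. They were kept for 2 days in stem cell medium lacking LIF, the cytokine that holds mouse stem cells undifferentiated. For 12 further days they were kept in Glasgow minimum essential medium with serum replacement, non-essential amino acids and β-mercaptoethanol. The strain of the cells and the day at which mESC were sampled are not given in the sources used here, and the labels name no genetic change and no added cardiac factor.

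Lysosomes are acidic organelles in which proteins taken up from outside or delivered from the cytoplasm are broken down. Cathepsins are made as inactive proenzymes, tagged with mannose 6-phosphate, sorted to the lysosome and activated there by cleavage. Some of them, such as cathepsins B, D and L, are made by nearly all cells, whereas cathepsin S is typical of antigen-presenting cells, cathepsin K of osteoclasts and activated fibroblasts, and Gpnmb of macrophages, osteoclasts and pigment cells.

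Between the groups the 10 genes did not move together. Ctss, Ctsk and Gpnmb were far higher at day 14 than at day 9 or in mESC, while the broadly expressed Ctsd, Ctsl and Lgmn differed by less than 1 on the log2 scale in every comparison. Ctss and Gpnmb were lower at day 9 than in mESC before standing higher at day 14 than in either. Ctsh was highest at day 9, Ctsc was highest in mESC, and Ctsb and Ctsz were highest at day 14. The levels given below are log2 of the processed signal minus the 75th percentile of the array, so that 0 is the level of the 75th percentile of all spots on that array. Probes bind with different strength, so a level is compared between groups for 1 gene and never between genes.

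A gene is said to have risen or fallen where limma gave an adjusted p under 0.05 over all 20869 genes together with a log2 fold change of at least 1 in size. At day 9 relative to mESC, 5 of the 10 genes were called, against 41.0% of all genes tested. Of these 2 rose and 3 fell, where 20.0% and 21.0% of all genes did. At day 14 relative to mESC, 6 were called, against 46.9% of all genes, with 5 higher and 1 lower against 22.8% and 24.1%. At day 14 relative to day 9, 5 were called, against 13.8% of all genes, with 4 higher and 1 lower against 10.2% and 3.61%. The median log2 fold change of the 10 genes was 0.08, 1.03 and 0.59 in these 3 comparisons, and that of all genes was −0.161, −0.189 and −0.091. The arrays of the groups compared did not overlap for 7, 9 and 9 of the 10 genes, against 78.6%, 83.9% and 57.4% of all genes. A lack of overlap, as given below for single genes, was thus common on these arrays. The comparisons share arrays, so their counts are not independent. With only 10 genes a single gene is worth 10% of the list.

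The 75th percentile of raw signal lay between 345.9 and 386.2 for mESC, between 395.1 and 438.4 for day 9 and between 463.4 and 507.7 for day 14. The share of probes well above background lay between 59.5% and 60.6% for mESC, 61.4% and 65.5% for day 9 and 64.5% and 67.9% for day 14. The labels call every sample embryonic stem cells. The summed level of 8 stem cell markers was 615 to 662 times the 75th percentile in mESC, 17.2 to 25.6 times at day 9 and 13.9 to 14.9 times at day 14. A summed level, here and below, adds signals without logs. The brightest genes of a list weigh most in it, so it can differ in direction from the median change. Each group was hybridised on its own slide and scanned in its own session, so neither slide nor scan can be told apart from group. The labels do not state that replicates came from separate cultures, and the p-values cover only the spread among these arrays, and that spread may be technical. In bulk RNA, fewer cells of a type and less RNA per cell cannot be told apart. Precision is limited by having 4 arrays per group.

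**Figure D1:**
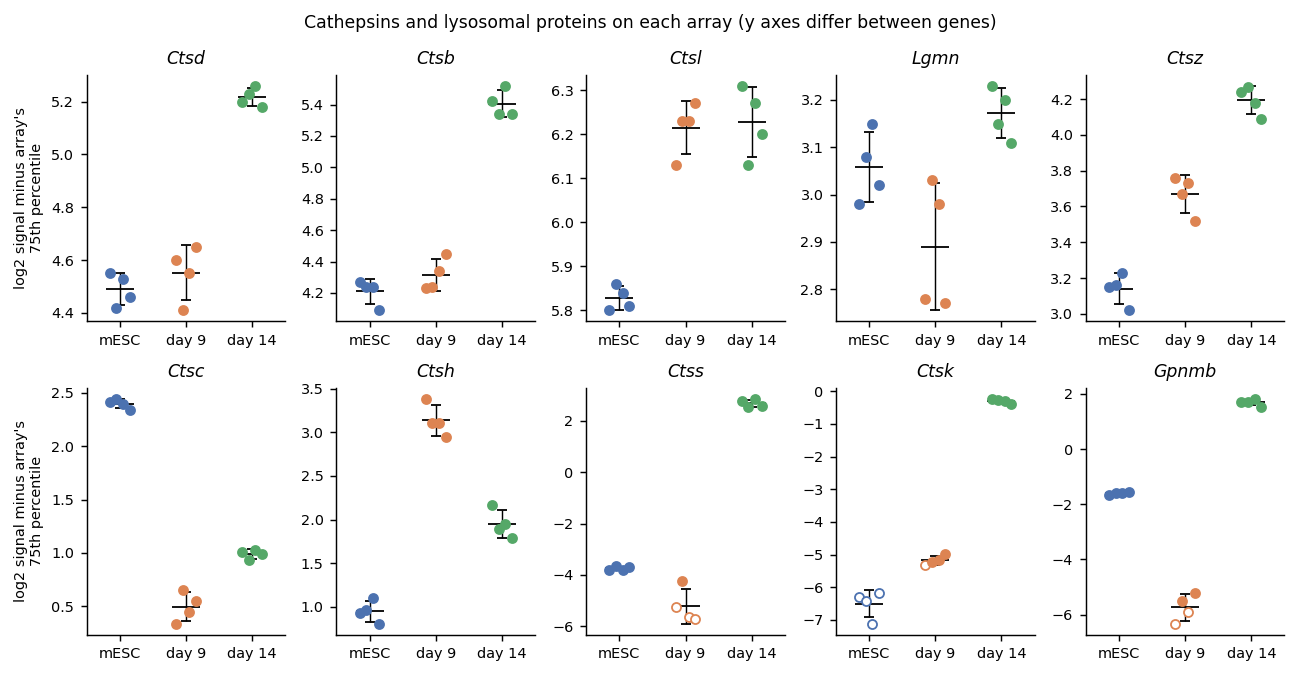
Level of each of the 10 genes on every array, as log2 signal minus the array's 75th percentile, with a separate y axis for each gene. Points are arrays, filled where the spot was well above background and open where it was not. Bars are the mean ± SD of 4 arrays. Ctss, Ctsk and Gpnmb stand far apart at day 14, and Ctss and Gpnmb are lowest at day 9.

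The cysteine protease cathepsin S (Ctss, chromosome 3) trims the invariant chain from MHC class II molecules in antigen-presenting cells and stays active at neutral pH. Its level was −3.80, −3.67, −3.82 and −3.70 on the mESC arrays, −5.24, −4.25, −5.64 and −5.73 at day 9, and 2.76, 2.56, 2.85 and 2.57 at day 14. The 3 groups did not overlap, and only replicate 2 of the 4 day 9 spots was well above background. Ctss fell at day 9 relative to mESC, with a log2 fold change of −1.46 ± 0.26 (SE, n = 4 arrays each, limma adjusted p = 0.000283). It then stood 7.90 ± 0.26 higher at day 14 than at day 9 (limma adjusted p = 1.07e-09), or 238-fold as fitted, a size that rests on a day 9 group with 1 of 4 spots well above background. Relative to mESC it was 6.43 ± 0.26 higher at day 14 (limma adjusted p = 4.89e-10). The spread was widest at day 9, with an SD of 0.68 against 0.07 in mESC, and the SE uses 1 variance for the 3 groups. With the normexp background correction the day 9 difference was −0.40 and was no longer called. Day 14 was then 4.86 above day 9 and 4.46 above mESC, smaller than as fitted.

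Gpnmb (chromosome 6) is a transmembrane glycoprotein of lysosomes, phagosomes and melanosomes and a known target gene of MITF. On the probe that stood for the gene its level was −1.65, −1.60, −1.60 and −1.56 in mESC, −6.32, −5.49, −5.92 and −5.20 at day 9, and 1.72, 1.70, 1.81 and 1.54 at day 14. All mESC and day 14 spots were well above background, as were 2 of the 4 at day 9, and the groups did not overlap. Gpnmb fell at day 9 by 4.13 ± 0.19 on the log2 scale relative to mESC (limma adjusted p = 1.86e-09). At day 14 it was 7.42 ± 0.19 above day 9 and 3.30 ± 0.19 above mESC (limma adjusted p = 1.67e-10 and 1.14e-08). If each day 9 array is set no lower than its dimmest signal that was well above background, the day 14 level was 147 times that of day 9, against 172 times as fitted. The size depended on the background correction. With normexp Gpnmb at day 14 was 4.34 above day 9 and 2.70 above mESC on the log2 scale. Its day 9 difference from mESC was then −1.64. A second probe of Gpnmb was not well above background on any of the 12 arrays and was not tested, so the pattern rests on 1 probe.

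Cathepsin K (Ctsk, chromosome 3) is the collagen-degrading protease of osteoclasts and is also made by fibroblasts. Its level was −6.31, −6.41, −7.11 and −6.17 in mESC, where no spot was well above background. It was −5.33, −5.23, −5.17 and −4.98 at day 9, with 3 of 4 spots above background, and −0.25, −0.26, −0.30 and −0.38 at day 14. The 4 day 14 arrays lay far above all the others, and every day 9 array lay above every mESC array.

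Ctsk was 6.21 ± 0.17 higher at day 14 than in mESC as fitted (limma adjusted p = 1.73e-11). The lower bound was 33.4-fold, or 5.06 on the log2 scale. It takes, for each mESC array, the lowest signal of any probe well above background there. This bound, like each given below as at least, holds for the deposited background correction only. With normexp the difference from mESC was 2.31. Against day 9 Ctsk was higher by 4.88 ± 0.17 at day 14 (limma adjusted p = 1.53e-09), and by 2.31 with normexp. At day 9 it was called higher than in mESC (1.32 ± 0.17, limma adjusted p = 1.83e-05). The bound there was only 1.13-fold, and with normexp the difference was 0.01 and not called.

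Ctss and Ctsk are neighbours: in the RefSeq gene order of mouse chromosome 3 the run is Arnt, Ctsk, Ctss and Hormad1. The flanking genes, examined after their values had been seen, differed from both. Arnt, a partner of hypoxia-inducible factors, was not called at −0.71 ± 0.06 at day 9 and −0.38 ± 0.06 at day 14 relative to mESC. Hormad1, a meiotic chromosome protein, was not well above background at either day and was at least 52.7-fold lower at day 9 and at least 64.1-fold lower at day 14 than in mESC. Another of its probes changed by −4.45 and −4.63 on the log2 scale. The 2 cathepsin genes themselves parted at day 9, where Ctsk was called higher and Ctss lower than in mESC, both from spots near background and neither called with normexp (0.01 and −0.40).

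The sequences upstream of the 3 genes with the largest rises, and of Ctsd as a broadly expressed member, are shown for comparison of their promoters. Each is the 250 bases before the annotated gene start on the gene's own strand, from RefSeq, build GRCm38.p6. They are chr3:95526536-95526785, plus strand, for Ctss, chr6:49036268-49036517, plus strand, for Gpnmb, chr3:95498960-95499209, plus strand, for Ctsk and chr7:142387828-142388077, minus strand, for Ctsd. Capitals mark CACGTG, the core letters bound by MITF and its relatives TFEB, TFE3 and TFEC, and GAGGAAG or its complement CTTCCTC, core letters of sites for the macrophage factor PU.1.
Ctss: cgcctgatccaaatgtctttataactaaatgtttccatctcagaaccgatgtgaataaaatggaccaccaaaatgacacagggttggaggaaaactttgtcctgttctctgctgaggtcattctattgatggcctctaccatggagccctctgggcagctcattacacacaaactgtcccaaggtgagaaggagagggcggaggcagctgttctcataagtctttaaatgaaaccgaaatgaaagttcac
Gpnmb: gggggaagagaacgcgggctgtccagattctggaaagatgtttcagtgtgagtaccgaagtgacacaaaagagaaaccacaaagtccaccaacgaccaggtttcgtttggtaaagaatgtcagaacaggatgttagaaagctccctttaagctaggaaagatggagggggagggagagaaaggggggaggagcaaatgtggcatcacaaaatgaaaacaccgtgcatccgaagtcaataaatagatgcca
Ctsk: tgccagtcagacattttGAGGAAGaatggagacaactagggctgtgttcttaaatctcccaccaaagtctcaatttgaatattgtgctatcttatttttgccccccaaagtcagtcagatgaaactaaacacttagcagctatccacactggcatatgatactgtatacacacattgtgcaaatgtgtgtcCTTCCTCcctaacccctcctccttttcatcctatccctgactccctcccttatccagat
Ctsd: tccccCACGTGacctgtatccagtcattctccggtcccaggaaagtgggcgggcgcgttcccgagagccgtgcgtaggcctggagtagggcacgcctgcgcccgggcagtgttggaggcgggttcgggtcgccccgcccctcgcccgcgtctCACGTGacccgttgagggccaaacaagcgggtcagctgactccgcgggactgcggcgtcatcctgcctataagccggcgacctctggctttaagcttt

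RefSeq promoters were matched for 8 of the 10 genes, 9 promoters in all since Lgmn has a pair, and Ctsb and Ctsh are named here only. CACGTG, which reads the same on both strands, was found in 3 of the 9 windows of 250 bases, against 6.02% of 32851 mouse promoters of the same length. Those 3 were Ctsd, with 2 matches, Ctsl and the second promoter of Lgmn, the genes whose levels differed by less than 1 on the log2 scale in every comparison. The other promoter of Lgmn held no match. GAGGAAG on either strand was found in 2 of the 9 windows, against 10.6% of all promoters, namely in Ctsc and Ctsk with 2 matches each. No window held both motifs. The windows of Ctss, Gpnmb and Ctsz held neither set of letters. A match of letters is a description and not a measured binding site.

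**Figure D2:**
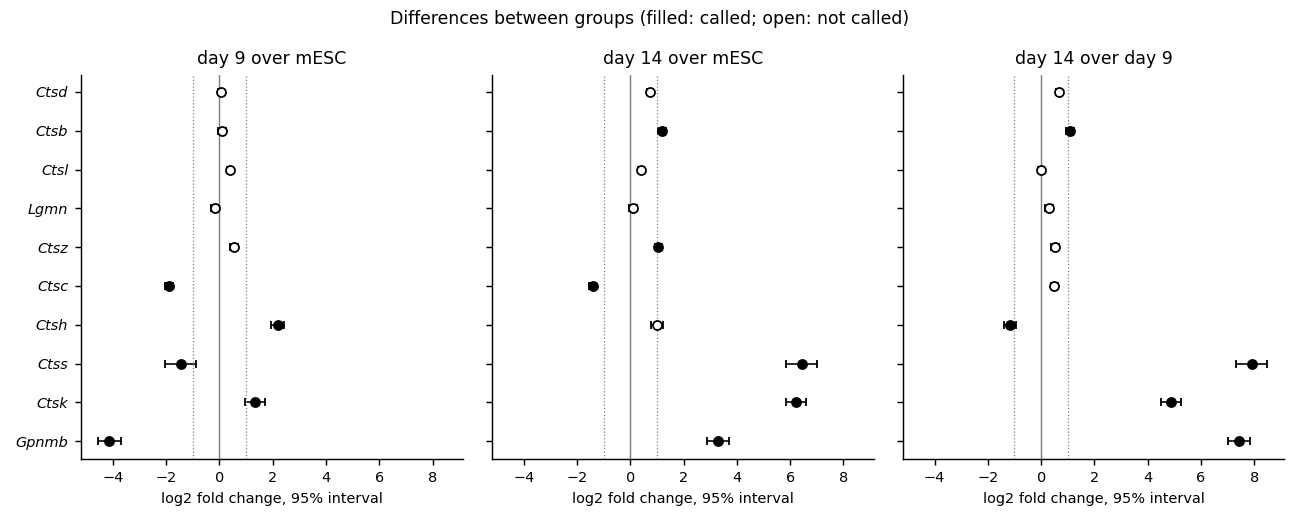
Log2 fold change of each gene in the 3 comparisons, with 95% intervals from the limma fit on 12 arrays. Filled points were called and open points were not, and dotted lines mark a change of 1 in either direction. Ctss, Ctsk and Gpnmb are the 3 genes with differences above 3 in size.

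Among the exopeptidases, Ctsc and Ctsh moved in opposite directions at day 9. Cathepsin C (Ctsc, chromosome 7), the dipeptidyl peptidase that activates the serine proteases of granules in immune cells, had levels of 2.41, 2.44, 2.39 and 2.34 in mESC, 0.34, 0.65, 0.45 and 0.55 at day 9, and 1.01, 0.93, 1.03 and 0.99 at day 14. All mESC arrays lay above all others. Ctsc fell by 1.90 ± 0.06 at day 9 and by 1.40 ± 0.06 at day 14 relative to mESC (limma adjusted p = 9.56e-11 and 1.04e-09). Day 14 was 0.49 ± 0.06 above day 9 (limma adjusted p = 3.85e-05), without overlap of the arrays but short of the threshold on size.

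Cathepsin H (Ctsh, chromosome 9), an aminopeptidase, had levels of 0.93, 0.97, 1.10 and 0.81 in mESC, 3.38, 3.11, 3.11 and 2.95 at day 9, and 2.17, 1.89, 1.95 and 1.79 at day 14. It was highest on every day 9 array and lowest on every mESC array. It rose by 2.18 ± 0.10 at day 9 relative to mESC (limma adjusted p = 2.33e-09) and was 1.18 ± 0.10 lower at day 14 than at day 9 (limma adjusted p = 2.25e-06). The difference between day 14 and mESC was 1.00 ± 0.10 (limma adjusted p = 2.45e-06). It lay just under the threshold before rounding and was not called. It was called with quantile normalization (1.14) and without mESC replicate 2 or 3 or day 14 replicate 2 or 4.

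Cathepsin Z (Ctsz, chromosome 2), a carboxypeptidase, had levels of 3.15, 3.16, 3.23 and 3.02 in mESC, 3.76, 3.67, 3.73 and 3.52 at day 9, and 4.24, 4.27, 4.18 and 4.09 at day 14. The groups did not overlap, and each later group was the higher. Only day 14 against mESC was called, at 1.05 ± 0.07 (limma adjusted p = 2.59e-08), and 1.15 ± 0.05 on the second probe. Day 9 relative to mESC was 0.53 ± 0.07 and day 14 relative to day 9 was 0.52 ± 0.07.

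Cathepsin B (Ctsb, chromosome 14), an abundant cysteine protease with both endopeptidase and peptidyl-dipeptidase activity, stood at 4.27, 4.24, 4.24 and 4.09 in mESC, 4.23, 4.24, 4.34 and 4.45 at day 9, and 5.42, 5.34, 5.52 and 5.34 at day 14. The mESC and day 9 arrays overlapped, and the 4 day 14 arrays lay above them all. Day 14 was higher by 1.19 ± 0.07 than mESC and by 1.09 ± 0.07 than day 9 (limma adjusted p = 6.76e-09 and 1.11e-07). At day 9 the difference from mESC was 0.10, with a 95% interval of −0.04 to 0.25. A second, dimmer probe of Ctsb gave larger differences: 0.87 ± 0.08 at day 9 and 2.42 ± 0.08 at day 14 relative to mESC, and 1.54 ± 0.08 between the days. The direction at day 14 was the same on both probes, while the size was not settled by them. The calls of Ctsb depended on scaling: with the median of each array as its zero, Ctsb at day 14 was 0.88 above mESC and 0.90 above day 9, and Ctsz was 0.74 above mESC, none of them called. Relative to the median of all genes, Ctsb was 1.38 and Ctsz 1.24 higher at day 14 than in mESC under either of these scalings. The scalings differ only by a constant for each array, so these values are the same by construction. Relative to that median, Ctsb and Ctsz were 0.95 and 0.93 higher with normexp and 1.78 and 1.59 higher with quantile normalization.

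The remaining members stayed within a change of 1 in every comparison. Cathepsin D (Ctsd, chromosome 7), the main aspartic protease of lysosomes, ran from 4.42 to 4.55 in mESC, 4.41 to 4.65 at day 9 and 5.18 to 5.26 at day 14. The day 14 arrays lay above the others without overlap, at 0.73 ± 0.05 above mESC and 0.67 ± 0.05 above day 9 (limma adjusted p = 1.25e-07 and 1.33e-06). A second probe gave 0.71 ± 0.08 and 0.77 ± 0.08 for the same pair of differences. With quantile normalization Ctsd passed the threshold at day 14 relative to mESC (1.10). At day 9 its difference from mESC was 0.06, with a 95% interval of −0.06 to 0.18.

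Cathepsin L (Ctsl, chromosome 13), a cysteine endopeptidase that also acts in prohormone processing, ran from 5.80 to 5.86 in mESC, 6.13 to 6.27 at day 9 and 6.13 to 6.31 at day 14. Both days lay above mESC without overlap, by 0.39 ± 0.05 at day 9 and 0.40 ± 0.05 at day 14 (limma adjusted p = 1.43e-05 and 1.00e-05). Between the days the difference was 0.01, with a 95% interval of −0.10 to 0.12. Legumain (Lgmn, chromosome 12), which cuts after asparagine and helps to mature other cathepsins, ran from 2.98 to 3.15 in mESC, 2.77 to 3.03 at day 9 and 3.11 to 3.23 at day 14. Its differences were −0.17 ± 0.07 at day 9 and 0.12 ± 0.07 at day 14 relative to mESC, with overlapping arrays in both. Day 14 was 0.28 ± 0.07 above day 9 (limma adjusted p = 0.0036).

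By the order of the 3 group means, 5 of the 10 genes stepped up from mESC through day 9 to day 14 (Ctsb, Ctsd, Ctsk, Ctsl and Ctsz), an order that 19.5% of all genes had. The first step of Ctsb and Ctsd and the second step of Ctsl were not resolved, since the arrays of the 2 groups overlapped. For 4 genes day 9 was lowest (Ctsc, Ctss, Lgmn and Gpnmb), as for 23.1% of all genes, and for Ctsh day 9 was highest, as for 24.4%. No member stepped down, the order of 33.1% of all genes. A fall at day 9 followed by a rise at day 14 above both earlier groups was called for 77 genes, 0.369% of those tested, among them Ctss and Gpnmb. The pattern of Ctsh, a rise at day 9 and a fall from there to day 14, was called for 404 genes or 1.94%.

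The genes nearest to each member were found among 15048 named genes by the root-mean-square difference of profiles centred over the 12 arrays. For Gpnmb one of the 2 nearest was Adh1, an alcohol dehydrogenase (0.49 on the log2 scale). For Ctss they were Kng1, which encodes kininogen (0.55), and Msr1, the macrophage scavenger receptor (0.57), which was at least 40.0-fold higher at day 14 than at day 9. For Ctsk they were Mylk, the myosin light chain kinase of smooth muscle (0.27), and Sostdc1, a secreted antagonist of BMP and Wnt signals (0.34). Mylk rose by 1.69 ± 0.08 at day 9 relative to mESC and by 4.99 ± 0.08 from day 9 to day 14, and the first of these was 0.46 and not called with normexp. Within the list the nearest pairs were Ctsb with Ctsd and Ctsd with Ctsz, both at 0.22. Ctss and Ctsk, and Ctss and Gpnmb, were 1.44 apart. Profiles were not scaled to equal spread, so genes that change little lie near each other by size alone.

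Marker lists of cells known to make Ctss, Ctsk or Gpnmb were set beside them. All 16 macrophage markers were higher at day 14 than at day 9 and than in mESC, with medians of 5.06 and 6.11 on the log2 scale. Their summed level was 0.497 to 0.558 times the 75th percentile in mESC, 0.638 to 0.828 times at day 9 and 26.4 to 33.1 times at day 14. Of the 16, 11 had no array above background in mESC and 9 had none at day 9. Adgre1, Itgam, Fcgr1, Aif1 and Cx3cr1 were among both. All 16 were above background on every day 14 array. Tyrobp, the adaptor of macrophage receptors, was 6.68 ± 0.35 higher at day 14 than at day 9, and Fcer1g, the common Fc receptor chain, 4.65 ± 0.14 higher. At day 9, where Ctss and Gpnmb fell, 2 of the 16 markers rose, 1 fell and 13 were not called. Those that rose were Csf1r (4.05 ± 0.14, at least 4.54-fold) and Tyrobp (2.45 ± 0.35, at least 2.91-fold). Both had arrays above background at day 9 and none in mESC, and normexp ended both calls (0.60 and 0.31).

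Of 10 osteoclast markers, 5 rose and 1 fell at day 14 relative to day 9, with a median of 1.48. Relative to mESC, 3 rose and 3 fell at day 9, and 5 rose and 1 fell at day 14. The gelatinase gene Mmp9 was 4.19 ± 0.23 higher at day 14 than at day 9. Dcstamp, a fusion protein of osteoclast precursors, was at least 60.5-fold lower at day 9 than in mESC. It was at least 5.11-fold higher at day 14 than at day 9, a call that normexp ended (0.89). At day 14 it was still called lower than in mESC, at −3.57 ± 0.15. The summed level of this list was 2.87 to 3.04 in mESC, 1.46 to 2.15 at day 9 and 2.56 to 3.04 at day 14. The receptor Calcr and Atp6v0d2 had no array above background in mESC, and Dcstamp and Atp6v0d2 had none at day 9. All 10 markers were above background on every day 14 array. Of 8 melanocyte markers 5 were tested, and Tyr and Tyrp1, the enzymes of pigment synthesis, were not above background on any array. Of the 5, 1 rose and 4 fell at day 9, and 1 rose and 2 fell at day 14 relative to mESC. Between the days 2 rose and 0 fell. Pmel, a pigment granule protein, fell by 3.19 ± 0.08 at day 9 and by 3.53 ± 0.08 at day 14 relative to mESC. Dct went the other way and was called higher in all 3 comparisons, at least 2.45-fold at day 14 relative to mESC. With normexp none of these calls of Dct held (0.05, 0.67 and 0.62). The melanocyte list summed to 2.63 to 2.76 in mESC, 0.42 to 0.572 at day 9 and 0.525 to 0.637 at day 14.

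Of 10 fibroblast markers, 8 rose and 1 fell at day 9 and 9 rose and 1 fell at day 14 relative to mESC. The one that fell was Thy1 in both, named after its values were seen. From day 9 to day 14, 4 rose, 1 fell and 5 were not called, with a median of 0.62. Dcn, the proteoglycan decorin, was 3.68 ± 0.29 higher at day 14 than at day 9, while the collagen gene Col3a1 was not called at 0.37 ± 0.30. Fibroblast markers summed to 4.24 to 4.57 in mESC, 243 to 427 at day 9 and 541 to 596 at day 14. Col3a1, Dcn, Lum, Postn and Fap had no array above background in mESC. All 10 cardiomyocyte markers rose at both days relative to mESC, and 2 fell from day 9 to day 14. Their summed level was 5.19 to 5.8 in mESC, 213 to 415 at day 9 and 209 to 273 at day 14, where all 10 were above background throughout. Visceral endoderm markers, which label a tissue rich in lysosomes, rose in 9 of 12 cases at day 9 relative to mESC. From day 9 to day 14, 1 rose and 4 fell, with a median of −0.44. They summed to 4.73 to 5.1 in mESC, 98.9 to 139 at day 9 and 150 to 158 at day 14, against the direction of the median between the days. Afp, Ttr, Cubn and Apoa1 had no array above background in mESC. The part of any of these cell types in the levels of the 10 genes was not tested.

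**Figure D3:**
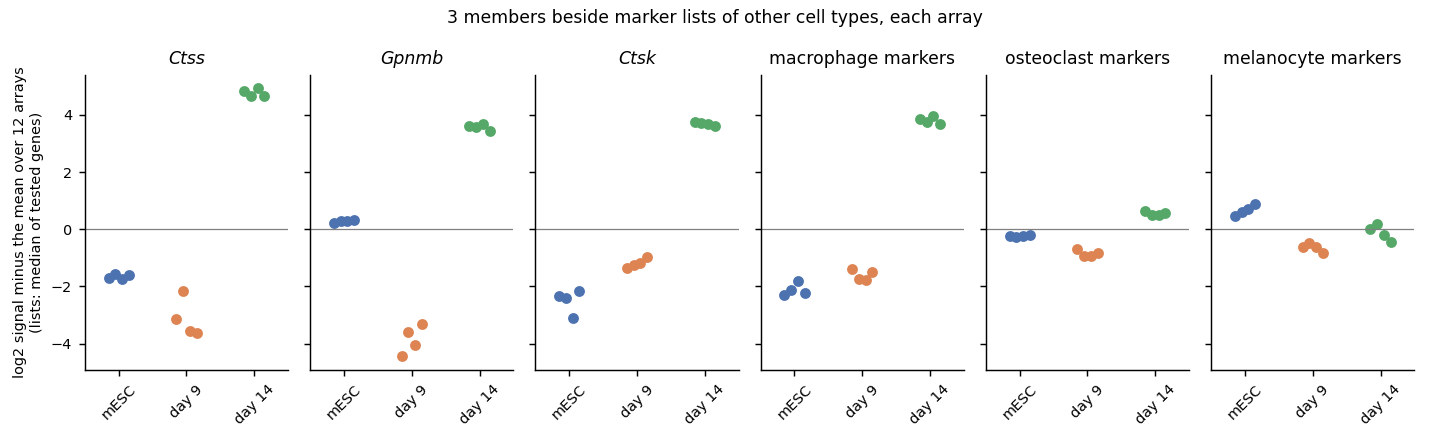
Ctss, Gpnmb and Ctsk beside marker lists of macrophages, osteoclasts and melanocytes. Each point is an array, as log2 signal minus the gene's mean over the 12 arrays, and for lists the median over tested genes. The macrophage list runs from −2.303 to −1.809 in mESC, −1.767 to −1.404 at day 9 and 3.672 to 3.968 at day 14. Of its 16 genes, 11 had no array above background in mESC and 9 had none at day 9.

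In 8 of the 9 other lysosomal lists most of the tested genes were not called between day 9 and day 14. The exception was the partners in antigen presentation. Only 13.8% of all genes were called there, 10.2% higher and 3.61% lower, so an uncalled majority does not set a list apart. The share called higher was 66.7% for the exception and 40% for cystatins. The 66.7% included Ciita (1.14) and Cd74 (1.04), near the threshold. Neither was called with quantile normalization, median scaling or normexp, or without day 9 replicate 2. The exception thus rests on rises near the threshold. Relative to mESC, 20.0% of all genes rose and 21.0% fell at day 9, and 22.8% rose and 24.1% fell at day 14. Of 11 other tested cathepsins and lysosomal peptidases, 1 rose and 3 fell at day 9 relative to mESC, 3 rose and 3 fell at day 14 relative to mESC, and 2 rose between the days. Cathepsin O (Ctso) rose by 6.67 ± 0.22 at day 9 and 6.50 ± 0.22 at day 14, and was not above background on 3 of 4 mESC arrays. Scpep1, a serine carboxypeptidase, fell by 1.16 ± 0.04 and 1.12 ± 0.04, calls that ended with quantile normalization (−0.78 and −0.66). Tpp1, the tripeptidyl peptidase, was not called at 0.14 ± 0.06 and 0.15 ± 0.06. The placental cathepsins Ctsq and Ctsr were called higher at day 14 from levels near background, at least 1.35-fold and at least 1.06-fold above mESC, and normexp ended both calls (0.45 and 0.50).

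Cystatins are inhibitors of cysteine cathepsins, and 5 of 11 were tested. At day 14 relative to mESC 3 rose. Cystatin C (Cst3), the main secreted inhibitor, was 1.06 ± 0.06 higher, a call that ended with median scaling (0.74) and with normexp (1.00). Csta1, a stefin A gene, was 3.81 ± 0.27 higher as fitted, from a mESC mean of −5.99. Counting either of its 2 probes, 1 of 4 mESC arrays was above background. The third was Cst12, at least 1.59-fold higher and not called with normexp. Cystatin B (Cstb) was not called at −0.75 ± 0.07.

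Acid glycosidases and sulfatases, which degrade sugar chains, had 22 tested genes. At day 9 relative to mESC 4 rose and 4 fell, at day 14 relative to mESC 7 rose and 2 fell, and between the days 3 rose. Naglu, which degrades heparan sulfate, rose by 1.38 ± 0.08 at day 9 and 1.95 ± 0.08 at day 14, while the β-galactosidase gene Glb1 fell by 2.23 ± 0.05 and 1.88 ± 0.05. Of 12 lysosomal lipases, phosphatases and cofactors, 3 rose and 2 fell at day 9 and 3 rose at day 14 relative to mESC. The acid lipase gene Lipa rose by 2.88 ± 0.09 at day 9 and 2.72 ± 0.09 at day 14, and Smpd1, the acid sphingomyelinase, by 1.82 ± 0.07 and 1.96 ± 0.07.

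Among 16 lysosomal membrane proteins, the 3 that rose from day 9 to day 14 were Laptm5, Slc11a1 and Cd68, and each had fallen at day 9. Laptm5, a lysosomal protein of blood cells, fell by 5.63 ± 0.26 at day 9 relative to mESC and was 3.56 ± 0.26 higher at day 14 than at day 9. Slc11a1, the metal transporter NRAMP1 of phagosomes, fell by 6.53 ± 0.08 and was then 4.76 ± 0.08 higher. Cd68, a lysosomal glycoprotein of macrophages named after its values were seen, fell by 4.11 ± 0.07 and was then 4.63 ± 0.07 higher. Relative to mESC at day 14, Laptm5 stood at −2.06 ± 0.26, Slc11a1 at −1.78 ± 0.08 and Cd68 at 0.51 ± 0.07. Acp5, the tartrate-resistant acid phosphatase of osteoclasts, fell by 2.38 ± 0.12 at day 9 and was 2.11 ± 0.12 higher at day 14 than at day 9. Lamp2, a main structural protein of the lysosomal membrane, rose by 1.31 ± 0.06 at day 9 and 1.77 ± 0.06 at day 14 relative to mESC, but its least responsive probe gave 0.40 and 0.13. Over the list 1 rose and 5 fell at day 9, 2 rose and 4 fell at day 14 relative to mESC, and 3 rose between the days.

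Of 23 subunits of the vacuolar ATPase, which acidifies lysosomes, 20 were not called at day 9 and 18 at day 14 relative to mESC. The medians were −0.25 and −0.28. Between the days 2 rose and 0 fell. Among those that rose, Atp6v0d2 was at least 2.06-fold higher at day 14, a call that normexp ended (0.65). Atp6v1c2 was at least 15.3-fold lower at day 9 and at least 18.6-fold lower at day 14 than in mESC, whereas the core subunit Atp6v1g1 stood at 0.12 ± 0.04 and −0.03 ± 0.04. Of 12 genes for mannose 6-phosphate tagging and sorting, 2 rose at day 9, 1 rose and 1 fell at day 14 relative to mESC, and limma called 0 between the days, where 10 had an unadjusted p under 0.05. Sort1, the receptor sortilin, rose by 3.06 ± 0.07 at day 9 and 2.76 ± 0.07 at day 14, but its 4 probes ran from −0.08 to 3.06 at day 9.

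All 4 MiT/TFE transcription factors, which drive lysosomal genes through CACGTG sites, were tested. Mitf fell by 2.35 ± 0.23 at day 9 and 2.10 ± 0.23 at day 14 relative to mESC. Tfec was higher by 4.67 ± 0.12 and 4.29 ± 0.12 as fitted, from a mESC mean of −7.37. Counting either of its 2 probes, 1 of 4 mESC arrays was above background. The size as fitted may therefore rest on mESC spots not well above background. A second probe gave 1.07 and 0.08, and with normexp the day 9 value was 0.91 and not called. Tfeb was lower by 1.92 ± 0.16 and 1.36 ± 0.16, calls that normexp ended (−0.73 and −0.21). Tfe3 was not called at −0.42 ± 0.09 and −0.50 ± 0.09, and between the days limma called 0 of the 4, where 2 had an unadjusted p under 0.05.

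Ctss acts with the MHC class II machinery, of which 6 genes were tested. At day 9 relative to mESC 3 fell, at day 14 relative to mESC 3 fell, and at day 14 relative to day 9, 4 rose. The chaperone gene H2-DMb1 fell by 4.16 ± 0.07 at day 9 and was 3.01 ± 0.07 higher at day 14 than at day 9, which left it at −1.15 ± 0.07 relative to mESC. Ciita, the class II transactivator, stood at −2.97 ± 0.19 at day 14 relative to mESC. With normexp these 2 differences from mESC were −0.98 and −0.90 and not called. Between the days Ciita was 1.14 ± 0.19 higher. That rise was not called with quantile normalization (0.99), median scaling (0.95), normexp (0.54) or without day 9 replicate 2 (0.90). The invariant chain gene Cd74, whose product Ctss cuts, fell by 2.25 ± 0.08 at day 9, was 1.04 ± 0.08 higher at day 14 than at day 9, and stood at −1.21 ± 0.08 relative to mESC. The rise of Cd74 between the days was not called with quantile normalization (0.89), median scaling (0.84), normexp (0.72) or without day 9 replicate 2 (0.97), and its fall at day 14 relative to mESC was not called with normexp (−0.62). The class II gene H2-Ab1 was not called in any comparison, at −0.37 ± 0.18, 0.06 ± 0.18 and 0.43 ± 0.18.

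**Figure D4:**
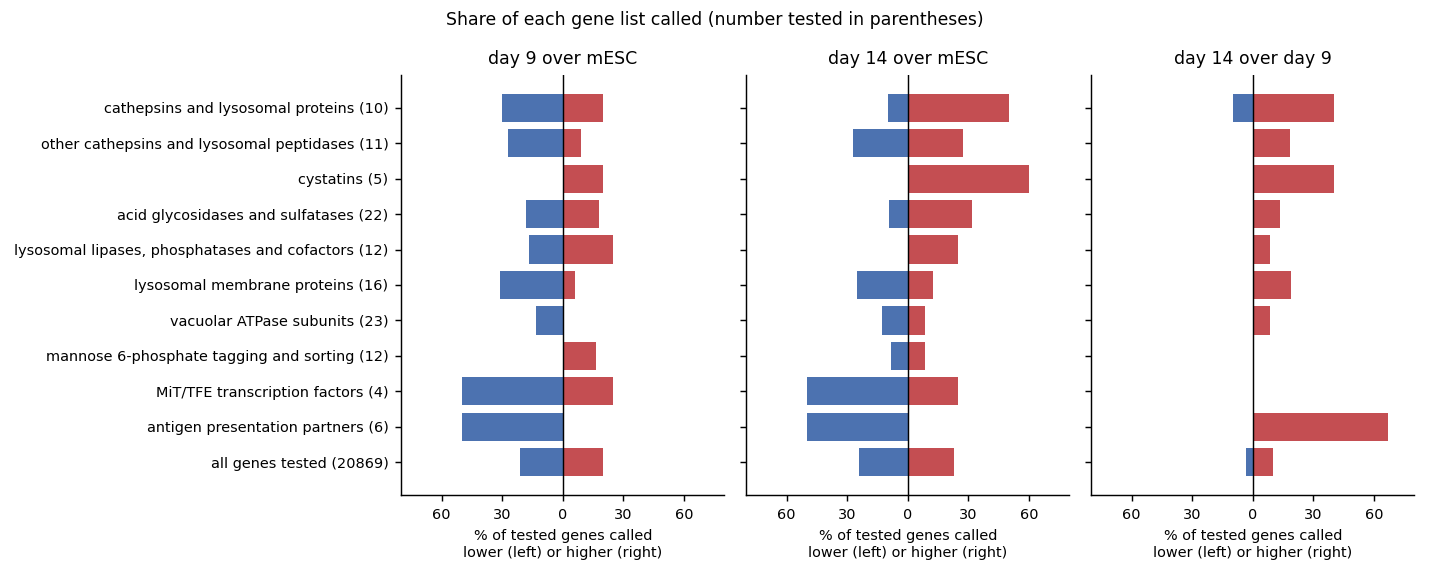
Percentage of the tested genes of each lysosomal list that were called lower (blue, left) or higher (red, right) in each comparison, with all 20869 genes in the bottom row. Numbers of tested genes stand in parentheses. For the 10 genes the share called higher was 20% at day 9 and 50% at day 14 relative to mESC and 40% at day 14 relative to day 9, against 20.0%, 22.8% and 10.2% of all genes.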

How the data were processed

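Total RNA of 4 mESC, 4 day 9 and 4 day 14 samples was read on one-colour arrays. Per the file headers, the processed signal deposited by the authors is an intensity from Agilent Feature Extraction 12, with background subtracted and spatial trend removed but no scaling across arrays. Median signal and local background, used for normexp, are deposited intensities without correction. The deposited flags and the deposited series table (an intensity, as the authors gave it) were also used. Submitters' processing notes name the same software.

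Control spots and spots flagged as outliers were dropped. Log2 of the processed signal minus the array's 75th percentile was used. A probe was tested if well above background on at least 3 of 4 arrays of a group, and the brightest tested probe stood for a gene. Probes were named through RefSeq accessions. limma 3.58.1 in R 4.3.3 was fitted to all 12 arrays, two-sided, with Benjamini-Hochberg adjustment, and tested on simulated data. In all 23 alternatives were run. The members, gene lists and tests were chosen with earlier results of these data known. Named genes are all members, up to 3 called genes of each list with the largest change at day 14 relative to mESC, up to 2 with the highest signal, and the 2 nearest profiles of each member, of which a part is printed. Of the genes this rule takes, 2 are not reported here.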

Additional observations from a re-analysis of the deposited data

Results flagged for a closer look

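Of the 30 sets of 4 arrays formed by the 10 genes and 3 groups, 1 held an array far from the others. In Ctsb, mESC replicate 4 stood at 4.09 on the log2 scale while the other mESC arrays lay between 4.24 and 4.27, so its gap to the nearest made up 0.832 of the whole range, above Dixon's 95% critical value for 4 samples. Chance gives such a gap in about 1 in 20 groups.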

How the results depend on the processing

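In the order used above (both days relative to mESC, then day 14 relative to day 9), 8562, 9780 and 2880 genes were called. With normexp it was 4759, 5848 and 1232, and with probes above background on all arrays 5483, 6430 and 1305. Of the members, 1 was then called higher at day 9 in either setting, 1 lower at day 9 with that filter, and day 14 was called higher than mESC for 3 with median scaling and 2 with the filter, and higher than day 9 for 1 with the filter, which removes Ctss, Ctsk and Gpnmb from the test. Leaving out each array in turn gave 8541 to 8629, 9752 to 9800 and 2839 to 2925 genes, 2 to 2, 5 to 6 and 4 to 4 members higher and 3 to 3, 1 to 1 and 1 to 1 lower. Only small uncalled differences changed sign. Lgmn stood at 0.04 at day 9 with quantile normalization, and against mESC at day 14 at −0.20 with median scaling and 0 with normexp. With median scaling Ctsb and Ctsd stood at −0.03 and −0.07 at day 9, and Ctsd at −0.06 on its dimmer probe. Ctsl between the days stood at −0.14 with normexp, −0.18 with median scaling, and −0.02, −0.02 and 0 without day 9 replicate 1, day 14 replicate 1 or day 14 replicate 3. Ctsb between the days was 0.93 with normexp and not called. For the cause of these moves, the filter acts by leaving fewer genes, and the others were not tested. Signal near background limits Ctsk in mESC and Ctss and Gpnmb at day 9. Replicate numbers did not pair the arrays: same-numbered arrays correlated at −0.08 to 0.18 in their deviations from the group means. With the number as a replicate block 8562, 9780 and 2876 genes were called, and no call of a member changed.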
